A study of Mus musculus with 2 samples.

Results

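The TNF superfamily is a group of signalling ligands and their receptors, and its genes were read here in mouse leukaemic stem cells. The genes were those whose annotated symbol begins Tnfsf or Tnfrsf with a number, together with Tnf, Lta, Ltb, Ltbr, Fas, Fasl, Cd40, Cd40lg and Cd70. They had 73 of the 45281 probes on the array and came to 39 of 19057 named genes, 16 of them ligands and 23 receptors. One array held PirBTM MLL-AF9 cells and the other wild-type MLL-AF9 cells, both labelled as leukaemic stem cells from the bone marrow of mice on a C57BL/6J background at 9 weeks of age. Cells of both groups carried MLL-AF9, a fusion oncogene that causes acute myeloid leukaemia. Pirb encodes a receptor with inhibitory signalling motifs that sits on myeloid cells and B cells. The labels do not say how PirBTM alters this receptor, how the cells were sorted or how many mice stood behind each RNA sample.

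Most TNF superfamily ligands are made as trimers on the cell surface, and many are cut off by proteases to act at a distance. Their receptors fall into classes by what they bind inside the cell. Death domain receptors such as Fas can start apoptosis through FADD and caspase-8, receptors without a death domain recruit TRAF adaptors that lead to NF-kB and MAP kinase signalling, and decoy receptors bind a ligand without passing on its full signal. In the blood system the family is known for inflammation (TNF), for the survival of B cells (BAFF, encoded by Tnfsf13b) and for costimulation of T cells.

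With 1 array per group replicate spread cannot be measured and no test was made; the values compare 2 samples. Genes with more than 1 probe gave, from how far their probes differed, a measuring SD of 0.30 on one probe's log2 ratio (2944 genes), and of 0.33 among the 981 genes whose second probe was dimmest. It leaves out variation between animals and sorts. Ratios are PirBTM over wild type on the normalized log2 scale, and the limit for calling a probe above background was a detection p-value of 0.01. For genes that passed this limit on a single array, the fold given is a lower bound, which holds for the processing used and can be smaller under another. The arrays had 36.2% (PirBTM) and 33.4% (wild type) of probes above background, and the median log2 ratio of all named genes above background was -0.16. With cyclic loess that median came to 0.10, and with median scaling to -0.02. No probe was named Pirb, so the genotype labels were not checked. The label of the cells was only partly borne out on the PirBTM array. Of 6 genes listed to check it, 5 had a probe, and Ly6g had none. Of these 5, 2 were at least 2-fold lower in PirBTM, beside 9.61% of all genes above background. Cd34 was below background there (5.34, against 7.68 in wild type), and Cd33 was at 10.34 there and 11.88 in wild type. The others were less than 2-fold apart: Kit (11.02 in PirBTM and 11.72 in wild type), Fcgr3 (11.50 and 11.46) and Itgam (8.18 and 7.32). All 8 listed genes of the MLL-AF9 programme, such as Hoxa9 and Meis1, were at least 2-fold lower in PirBTM, against the same 9.61%. Hoxa10, Hoxa5 and Eya1 were below background in PirBTM, so their folds are lower bounds. In RNA of a mixed sample, fewer cells of a type and less RNA per cell cannot be told apart.

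Of the 39 genes, 24 were above background on at least 1 array, a share that was 49.6% over all named genes. Among these 24, 10 were higher in PirBTM by 2-fold or more, 0 were lower by as much, and 14 lay in between. Over all named genes above background on an array, 12.8% were higher by 2-fold or more and 9.61% were lower by as much. The measured value was higher in PirBTM for 17 of the 24, beside 42.4% of all such genes. The 10 higher genes were the ligands Ltb, Tnfsf13b and Tnf and the receptors Tnfrsf13c, Cd40, Tnfrsf21, Tnfrsf1b, Tnfrsf11a, Tnfrsf25 and Tnfrsf1a. Of the 17 genes that both arrays detected, 6 were higher by that margin and 0 lower, beside 9.82% and 9.85% of all genes. The PirBTM array alone detected 6 genes and the wild-type array alone 1, Tnfrsf14, beside 12.1% and 4.47% of all genes. A gene that passed the background limit on 1 array only was let in through that array, which favours a difference. The counts over genes above background therefore describe these arrays and support nothing further. The remaining 15 genes were below background on both arrays. Upward calls made up 57.1% of all 2-fold calls over named genes as processed here, and 75.7% with cyclic loess, 69.3% with median scaling, 67.4% in the authors' deposited values and 68.5% where background was not corrected.

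**Figure D1:**
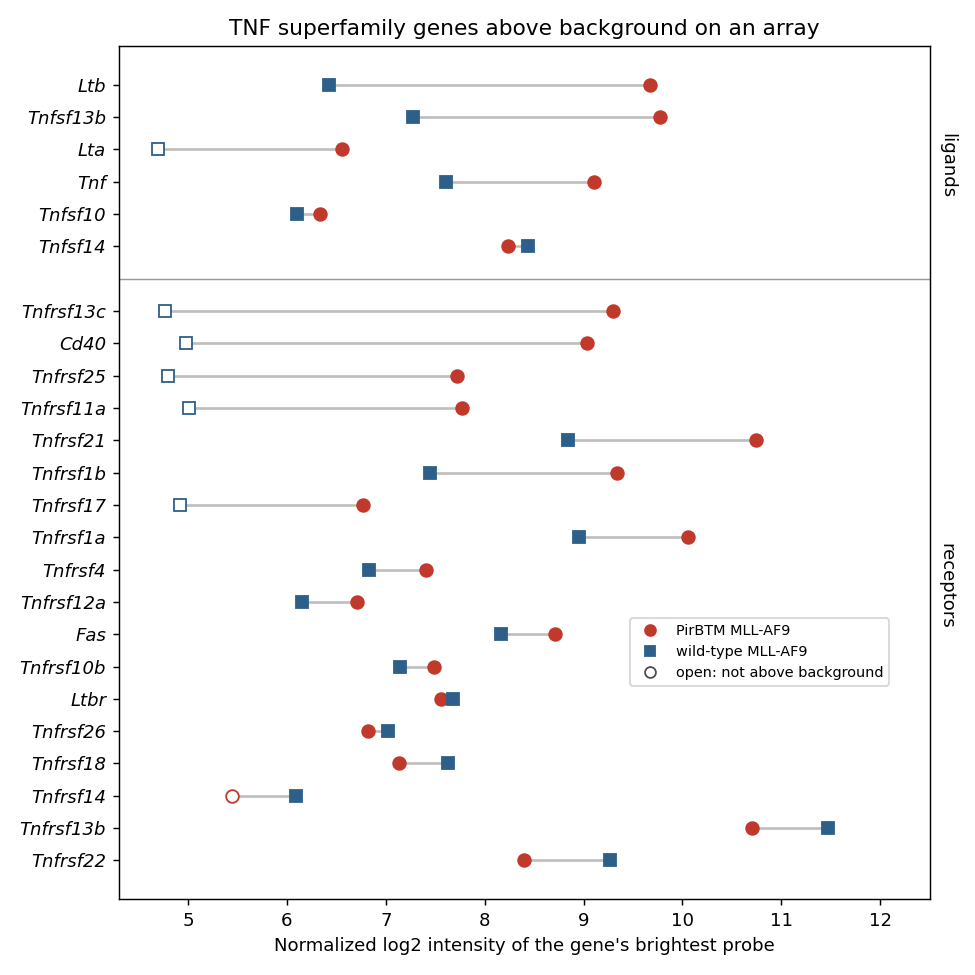
Normalized log2 intensity (x axis) of the brightest probe of each of the 24 TNF superfamily genes above background on at least 1 array, with PirBTM as red circles and wild type as blue squares, 1 array each; open symbols are not above background. The 6 genes with an open blue square were dark on the wild-type array, and Tnfrsf14 was dark on the PirBTM array. Levels of different genes cannot be set against each other, since probes differ in brightness.

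Among the ligands, Ltb, which encodes the membrane-anchored chain of the lymphotoxin heterotrimer, differed most. Its normalized log2 intensity was 9.67 in PirBTM and 6.43 in wild type, which made it 9.43-fold higher in PirBTM; it had 1 probe, whose wild-type value was close to the dimmest one detected on that array (5.97), so the size of the fold is uncertain. Tnf itself, the founding inflammatory cytokine of the family, stood at 9.11 in PirBTM and 7.61 in wild type and was 2.83-fold higher. Its probes gave nearly the same log2 ratio (1.5 and 1.51). Lta, the soluble chain that pairs with Ltb, was above background on the PirBTM array only (6.56, against 4.70 in wild type), by 1 of its 2 probes. Its lower bound was 1.5-fold as processed here and passed 2-fold with a detection limit of 0.05 (1.08 on the log2 scale), but its measured log2 ratio was 1.86 as processed here and 0.56 in the authors' deposited values, so the size of its difference is uncertain.

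Tnf, Lta and Ltb lie side by side on mouse chromosome 17, and the 250 bases before the start of each are shown because these neighbours were all brighter on the PirBTM array. The sequences are from RefSeq on GRCm38.p6, read 5′ to 3′ on the strand of the gene: chr17:35194257-35194506 on the plus strand for Ltb, chr17:35202008-35202257 on the minus strand for Tnf and chr17:35205352-35205601 on the minus strand for Lta. Capitals mark matches on either strand to 6 short motifs: GGGNNTT and the narrower GGGNTTT it contains, loose parts of the NF-kB motif, GAGGAAG, the core of the motif of the myeloid factor PU.1, TATAAA, the TATA box, and GAAAGTG and GAAACTG, parts of the motif of interferon regulatory factors. Where matches overlap, the capitals run on. These 6 motifs were settled on after matches in these windows had been seen, and after 2 longer patterns, of the NF-kB and interferon regulatory factor types, had been searched whose matches are not reported here, so the matches are a description of the letters only.
Ltb: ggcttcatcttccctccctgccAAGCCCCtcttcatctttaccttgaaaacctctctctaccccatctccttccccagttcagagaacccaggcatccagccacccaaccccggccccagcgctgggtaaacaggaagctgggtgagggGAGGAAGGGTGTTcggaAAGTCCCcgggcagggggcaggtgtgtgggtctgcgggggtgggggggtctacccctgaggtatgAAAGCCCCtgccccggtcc
Tnf: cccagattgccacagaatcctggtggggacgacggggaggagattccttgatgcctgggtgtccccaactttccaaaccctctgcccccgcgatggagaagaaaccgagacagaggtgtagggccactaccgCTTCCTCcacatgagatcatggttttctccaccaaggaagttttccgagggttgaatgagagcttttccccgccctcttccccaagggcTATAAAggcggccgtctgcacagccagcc
Lta: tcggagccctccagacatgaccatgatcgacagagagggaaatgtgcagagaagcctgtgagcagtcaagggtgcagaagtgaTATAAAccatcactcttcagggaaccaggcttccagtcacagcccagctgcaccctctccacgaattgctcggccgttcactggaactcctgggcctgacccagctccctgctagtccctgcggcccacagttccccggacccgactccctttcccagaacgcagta
The Ltb window held 5 matches to GGGNNTT, 1 of which is also a match to GGGNTTT, and 1 match to GAGGAAG. The Tnf window held 1 match to GAGGAAG and 1 to TATAAA, and the Lta window 1 to TATAAA. Of 32851 windows of this length, 41.2% held GGGNNTT, 14.9% GGGNTTT, 10.6% GAGGAAG, 12.4% TATAAA, 4.01% GAAAGTG and 4.99% GAAACTG. Among the 33 windows found for 29 of the family's genes, the numbers of windows with a match were 9, 6, 5, 6, 3 and 4 in the same order. A match is a run of letters and not a measured binding site.

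Tnfsf13b encodes BAFF, the cytokine that keeps mature B cells alive and that myeloid and stromal cells make. It was at 9.77 in PirBTM and 7.28 in wild type by its brightest probe, 5.63-fold higher. A second probe agreed in direction with a log2 ratio of 3.02, and its dimmest probe was above background on the PirBTM array only, with a lower bound of 0.25. The other death-inducing and lymphotoxin-like ligands were closer. Tnfsf10, which encodes the apoptosis ligand TRAIL, stood at 6.33 in PirBTM and 6.10 in wild type, a log2 ratio of 0.23 that is within the measuring error. Tnfsf14, which encodes LIGHT, a ligand of the lymphotoxin beta receptor and of the receptor encoded by Tnfrsf14, was at 8.24 in PirBTM and 8.44 in wild type. Its probes disagreed in size: the brightest gave a log2 ratio of -0.20, which turned to 0.05 after cyclic loess, the next gave -0.98, and the dimmest, above background on the wild-type array only, gave a bound of -1.13.

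The other 10 ligands were below background on both arrays. These were Fasl, the ligand of Fas; Tnfsf11, the osteoclast factor RANKL; Tnfsf12, which encodes TWEAK; and 7 ligands that costimulate lymphocytes, namely Tnfsf4, Tnfsf8, Tnfsf9, Tnfsf15, Tnfsf18, Cd40lg and Cd70. Tnfsf11 came nearest to the limit, with a detection p-value of 0.0363 in PirBTM and 0.215 in wild type. The raw signals of these 10 ranged from 133.7 to 178.3 in PirBTM and from 125.2 to 150.1 in wild type, where the inferred background had a mean of 147.2 with an SD of 14.0 in PirBTM and a mean of 139.3 with an SD of 11.6 in wild type. At this brightness no difference could have been read from them.

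The receptors for BAFF went different ways. Tnfrsf13c, the BAFF receptor of mature B cells, was at 9.30 in PirBTM and below background in wild type (4.77), with a lower bound of 3.33 for its log2 ratio. Tnfrsf17, which encodes BCMA, a receptor of plasma cells, was also above background in PirBTM only (6.77, against 4.92 in wild type), with a lower bound of 1.74-fold. That bound passed 2-fold with median scaling (1.09 on the log2 scale), cyclic loess (1.10) and a detection limit of 0.05 (1.29), while the measured log2 ratio was 1.84 as processed here and 0.56 in the authors' deposited values. Tnfrsf13b, which encodes TACI, a further receptor for BAFF and for the related cytokine APRIL, was bright on both arrays, at 10.70 in PirBTM and 11.47 in wild type. Its brightest probe was lower in PirBTM by a log2 ratio of -0.77, or -0.62 relative to the median of all genes, and its second probe by -1.57. With the mean of its probes the ratio was -1.17, past 2-fold; over the alternatives it ranged from -1.17 to -0.54. The ligand and 2 of its receptors were thus brighter in PirBTM, while the receptor that was bright in wild type was dimmer. B cell markers differed in the same direction as Tnfrsf13c and Tnfrsf17: of 8 listed B cell genes with a probe, 7 were above background in PirBTM and 1 (Cd79b) in wild type, 6 were at least 2-fold higher in PirBTM, and their summed normalized intensity was 9049 in PirBTM and 1856 in wild type. Pax5, a defining B cell factor, was below background on both arrays. Of 6 plasma cell genes 4 were above background in PirBTM and 1 (Xbp1) in wild type, and 2 were at least 2-fold higher (Mzb1 and Irf4). The summed intensity of the list was 10400 in PirBTM and 4612 in wild type. Most of both sums came from Xbp1 (12.89 in PirBTM and 12.12 in wild type), which was less than 2-fold apart. Prdm1 and Jchain were below background on both arrays. Over all named genes above background on an array, 12.8% were at least 2-fold higher in PirBTM. The PirBTM array alone detected 12.1% of these genes and the wild-type array alone 4.47%. The part of these cells in the receptor values was not tested.

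The windows before the starts of Tnfrsf13c and Tnfrsf13b are set beside each other because these receptors of the same ligand differed in direction. They lie at chr15:82224381-82224630 on the minus strand and chr11:61126505-61126754 on the plus strand of GRCm38.p6, from RefSeq, with capitals as above.
Tnfrsf13c: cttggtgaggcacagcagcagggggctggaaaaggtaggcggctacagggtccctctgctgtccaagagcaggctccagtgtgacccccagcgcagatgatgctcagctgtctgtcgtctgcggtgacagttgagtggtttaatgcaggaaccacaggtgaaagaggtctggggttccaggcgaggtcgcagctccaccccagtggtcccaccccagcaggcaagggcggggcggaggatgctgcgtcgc
Tnfrsf13b: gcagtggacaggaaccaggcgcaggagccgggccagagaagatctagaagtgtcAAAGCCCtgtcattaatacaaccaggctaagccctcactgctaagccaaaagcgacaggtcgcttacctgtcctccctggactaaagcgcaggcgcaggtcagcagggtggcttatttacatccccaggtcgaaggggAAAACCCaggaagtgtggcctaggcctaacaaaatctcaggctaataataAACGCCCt
The Tnfrsf13b window held 3 matches to GGGNNTT, 2 of which are also matches to GGGNTTT, and none of the motifs was found in the letters of the Tnfrsf13c window.

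All 5 death domain receptors were above background, where 49.6% of all named genes were. Of these 5, 3 were at least 2-fold higher in PirBTM, beside 12.8% of all genes above background. Of the 4 that both arrays detected, 2 were, beside 9.82% of all such genes. Tnfrsf1a, the main receptor of TNF on most cells, stood at 10.06 in PirBTM and 8.95 in wild type, 2.15-fold higher, and its 3 probes gave log2 ratios of 1.10, 1.15 and 0.92. It lay close to the 2-fold limit and under it without background correction (0.94) and in the authors' deposited values (0.98). Tnfrsf21, or death receptor 6, was at 10.74 in PirBTM and 8.84 in wild type, 3.72-fold higher, and its second probe, above background in PirBTM only, gave a lower bound of 1.34 for the log2 ratio. Tnfrsf25, a receptor of T cells for the ligand encoded by Tnfsf15, was at 7.72 in PirBTM and below background in wild type (4.80), at least 3.35-fold higher by 1 of its 2 probes, with a bound under 2-fold without background correction (0.83 on the log2 scale) and in the authors' deposited values (0.78).

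Fas and the TRAIL receptor Tnfrsf10b were closer to equal. The brightest probe of Fas gave 8.71 in PirBTM and 8.16 in wild type, and its probes gave log2 ratios of 0.55 and 0.30. Tnfrsf10b, whose product starts apoptosis on binding TRAIL, stood at 7.49 in PirBTM and 7.14 in wild type, by 1 of its 5 probes; its log2 ratio of 0.35 is about the measuring SD and was 0.19 in the authors' deposited values, so no direction is read from it. The decoy receptor Tnfrsf22, which in mice binds TRAIL without a death domain, was at 8.40 in PirBTM and 9.27 in wild type. All 3 of its probes above background were lower in PirBTM, with log2 ratios of -0.87, -0.66 and -0.77, and relative to the median of all genes the ratio lay between -0.82 and -0.57 over the alternatives. Tnfrsf26, a mouse gene related to Tnfrsf22, was at 6.82 in PirBTM and 7.02 in wild type, and its log2 ratio of -0.20 turned to 0.11 after median scaling. Tnfrsf23, a further TRAIL decoy of mice, and Tnfrsf11b, the soluble decoy of RANKL, were below background on both arrays.

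Among 11 receptors that signal through TRAF adaptors, 8 were above background on an array, where 49.6% of all named genes were. Of these 8, 3 were at least 2-fold higher, beside 12.8% of all genes above background. Of the 5 that both arrays detected, 1 was, beside 9.82% of all such genes. Tnfrsf1b, the second TNF receptor, found mainly on blood cells, was at 9.34 in PirBTM and 7.45 in wild type, 3.71-fold higher. A log2 ratio of 1.40 came from its second probe. The third probe, above background in PirBTM only, gave a lower bound of 0.91, under 2-fold. Both TNF receptors and TNF were therefore brighter on the PirBTM array. Cd40, the receptor through which T cells activate B cells, macrophages and dendritic cells, stood at 9.03 in PirBTM and below background in wild type (4.98), at least 8.32-fold higher. Of its 5 probes, 3 were above background, all on the PirBTM array only, with lower bounds of 3.06, 1.88 and 0.58, and the other 2 were dark on both arrays. Tnfrsf11a, which encodes RANK, the receptor of osteoclast precursors for RANKL, was at 7.77 in PirBTM and below background in wild type (5.01), at least 3.49-fold higher by its only probe. Its bound fell under 2-fold without background correction (0.86 on the log2 scale) and in the authors' deposited values (0.82).

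The other TRAF-binding receptors differed by less than 2-fold. Tnfrsf4, a costimulatory receptor of T cells, gave 7.41 in PirBTM and 6.83 in wild type, and Tnfrsf12a, the receptor of TWEAK, 6.71 in PirBTM and 6.15 in wild type. The lymphotoxin beta receptor gene Ltbr did not follow its ligand Ltb: it was at 7.56 in PirBTM and 7.68 in wild type, a log2 ratio of -0.12 that turned to 0.18 after cyclic loess. Tnfrsf18, another costimulatory receptor of T cells, was at 7.13 in PirBTM and 7.63 in wild type, and its probes gave log2 ratios of -0.50 and -0.38. Tnfrsf14, the receptor of LIGHT, had a detection p-value of 0.0278 in PirBTM and 0.00534 in wild type. Its raw signals were nearly equal, 180.6 in PirBTM and 179.6 in wild type, while its normalized log2 ratio was -0.64 as processed here, -0.20 without background correction and -0.17 in the authors' deposited values, so no difference was shown for it. Tnfrsf8, Tnfrsf9 and Tnfrsf19 were below background on both arrays.

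**Figure D2:**
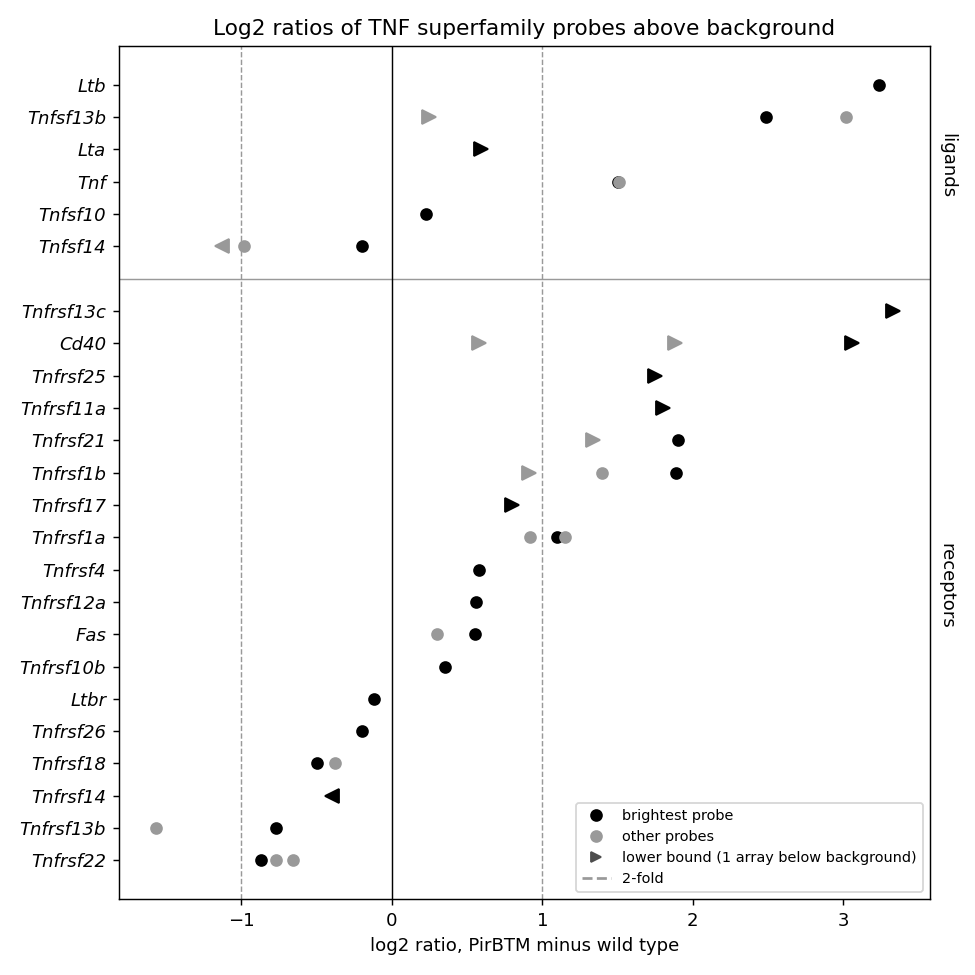
Log2 ratio, PirBTM minus wild type (x axis), of every probe above background on an array for the same 24 genes; black symbols are the brightest probe, grey symbols the other probes, and triangles are lower bounds where 1 array was below background. Dashed lines mark 2-fold. The probes of Tnf, Tnfrsf1a and Tnfrsf22 lie close together, while those of Tnfrsf13b and Tnfsf14 lie apart.

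Markers of mature blood cells differed on the same arrays as these receptors. Over all named genes above background on an array, 12.8% were at least 2-fold higher in PirBTM. All 10 listed macrophage and monocyte genes with a probe were at least 2-fold higher in PirBTM, 10 were above background there and 8 in wild type, where Ccr2 and Cd163 were dark, and their summed intensity was 58080 in PirBTM and 6587 in wild type. Of 11 T and NK cell genes, 8 were above background in PirBTM and 2 in wild type, and 6 were at least 2-fold higher. Their summed intensity was 9126 in PirBTM and 6449 in wild type. Most of the wild-type sum came from Cd8b1, the 1 gene above background that was lower in PirBTM (11.60, against 12.04 in wild type). Cd4, Cd8a and Ncr1 were below background on both arrays. Of 8 dendritic cell genes, 5 were above background in PirBTM and 1 (Siglech) in wild type, with 1 at least 2-fold higher and a summed intensity of 611 in PirBTM and 259 in wild type. Flt3, Itgax and Xcr1 were below background on both arrays. Of 9 neutrophil genes, 8 were above background in PirBTM and 7 in wild type, with 4 at least 2-fold higher and a summed intensity of 213419 in PirBTM and 110902 in wild type. The 4 higher genes were Ltf, Retnlg, Mmp9 and Cxcr2. Camp, Ngp, S100a8 and S100a9 were less than 2-fold apart, and S100a8 was slightly lower in PirBTM, with a log2 ratio of -0.16. Mmp8 was below background on both arrays. Genes of other marrow lineages also differed. All 8 erythroid genes with a probe were at least 2-fold higher in PirBTM, 8 were above background there and 5 in wild type, and their summed intensity was 77217 in PirBTM and 15159 in wild type. Of 7 megakaryocyte and platelet genes, 6 were above background in PirBTM and 4 in wild type, with 5 at least 2-fold higher and a summed intensity of 3372 in PirBTM and 607 in wild type; Itgb3 was below background on both arrays. Of 10 stromal and endothelial genes, 5 were above background in PirBTM and 3 in wild type, with 2 at least 2-fold higher. Their summed intensity was 22730 in PirBTM and 1159 in wild type. Most of the PirBTM sum came from the 2 higher genes, Cxcl12 (14.05 in PirBTM and 8.39 in wild type) and Bgn (12.23 and 6.82). The endothelial gene Pecam1 had a log2 ratio of 0.25 and Cdh5 a lower bound of 0.00. Col1a2, Col3a1, Lepr, Kdr and Bglap were below background on both arrays. The part of these cell types in the values of the TNF superfamily genes was not tested.

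The genes around the family were read from 4 lists. Among 31 adaptors and kinases of TNF receptor signalling with a probe, of 36 listed, 29 were above background, where 49.6% of all named genes were. Of these 29, 2 were at least 2-fold higher in PirBTM and 2 at least 2-fold lower, beside 12.8% and 9.61% of all genes above background. Their median log2 ratio was 0.00, beside -0.16 for all genes. The 2 higher were Traf1, an adaptor bound by the second TNF receptor and itself induced by NF-kB, which was at 9.20 in PirBTM and below background in wild type (5.53), at least 9.36-fold higher, and Map3k14, the kinase NIK of the non-canonical NF-kB pathway downstream of BAFF receptor, CD40 and lymphotoxin beta receptor, which was at 9.88 in PirBTM and 7.98 in wild type, 3.73-fold higher. The 2 lower were Mlkl, the membrane-permeabilizing protein of necroptosis, at 9.34 in PirBTM and 11.22 in wild type, 3.68-fold lower, and Bid, which links caspase-8 to the mitochondria, at 10.54 in PirBTM and 11.89 in wild type, 2.55-fold lower. The other 25 lay between these limits, and those measured on both arrays had log2 ratios from -0.85 (Diablo, which frees caspases from their inhibitors) to 0.99 (Traf4, just under 2-fold); both are named here after their values were seen. Fadd and Casp8, through which death domain receptors start apoptosis, did not lie equally close to 0: Fadd was at 9.39 in PirBTM and 10.23 in wild type, a log2 ratio of -0.84, and Casp8 at 10.26 in PirBTM and 10.60 in wild type, a log2 ratio of -0.34.

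Of the 7 TNF-induced protein genes and their partners above background, 3 were at least 2-fold higher in PirBTM and 0 lower, where 12.8% and 9.61% of all genes above background were; the 3 became 2 without background correction and in the authors' deposited values. Tnfaip3, which encodes A20, a feedback inhibitor of NF-kB signalling, was at 8.71 in PirBTM and 6.28 in wild type, 5.38-fold higher. Tnfaip2 was 2.68-fold higher (10.48 in PirBTM and 9.06 in wild type) and Tnfaip1 2.17-fold higher (9.57 in PirBTM and 8.45 in wild type). Of 9 genes above background that release TNF or control its production, 6 were at least 2-fold higher in PirBTM and 0 lower; the 6 became 4 in the authors' deposited values, without background correction and when genes had to be above background on both arrays, and 7 with the mean of probes. Zfp36, which encodes tristetraprolin, a protein that speeds the decay of Tnf mRNA, stood at 13.50 in PirBTM and 11.40 in wild type, 4.29-fold higher. Its relative Zfp36l1 was at 13.14 in PirBTM and 9.48 in wild type, 12.6-fold higher. Rhbdf1 and Rhbdf2, which encode the iRhoms that bring the TNF-cleaving protease ADAM17 to the cell surface, were at least 6.00-fold higher (8.56 in PirBTM and 5.03 in wild type) and 2.29-fold higher (7.25 in PirBTM and 6.05 in wild type). Adam17 itself was at 9.95 in PirBTM and 9.86 in wild type. Timp3, an inhibitor of ADAM17, was at least 2.65-fold higher (7.37 in PirBTM and 4.96 in wild type), and Litaf, named for TNF induction by lipopolysaccharide, 2.82-fold higher (12.98 in PirBTM and 11.49 in wild type). Of 6 family members whose symbols lie outside the rule, 2 were above background, where 49.6% of all named genes were. Cd27, the receptor of CD70 on lymphocytes, was at 8.51 in PirBTM and 6.16 in wild type, 5.08-fold higher. Relt was at 7.84 in PirBTM and 7.91 in wild type. The wild-type values of Tnfaip3, Cd27 and Rhbdf2 were close to the dimmest one detected on that array (5.97). The sizes of their folds are therefore uncertain. The macrophage and lymphocyte markers given above differed on the same arrays as these lists, and their part was not tested.

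**Figure D3:**
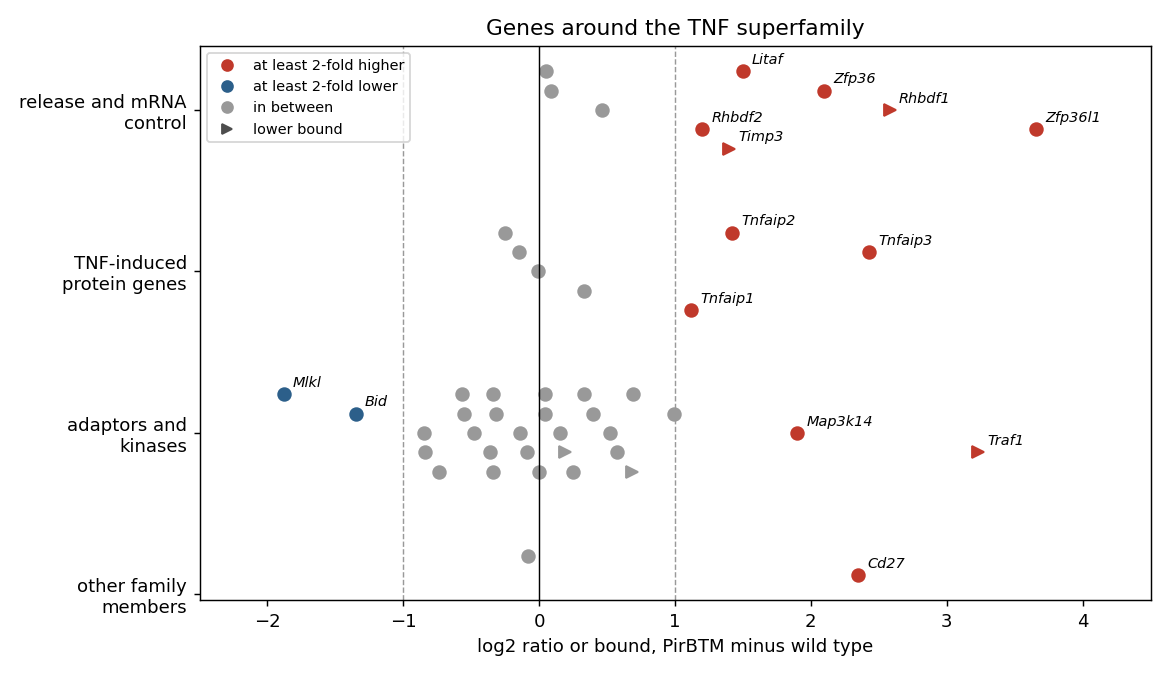
Log2 ratio or lower bound, PirBTM minus wild type (x axis), of genes above background on an array in 4 lists around the TNF superfamily; genes at least 2-fold higher are red, at least 2-fold lower blue, and triangles are lower bounds. The genes that control the release and decay of Tnf lie mostly to the right, and most of the 29 adaptors and kinases lie within 2-fold.

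Over the 9 processing alternatives, Ltb, Tnfsf13b, Tnf, Tnfrsf1b and Tnfrsf21 stayed at least 2-fold higher in all 9, with lowest log2 ratios of 2.14, 1.82, 1.08, 1.36 and 1.65. Tnfrsf13c and Cd40 stayed so in the 8 alternatives that gave them a value, with lowest bounds of 1.97 and 1.74. Tnfrsf11a and Tnfrsf25 did so in 6 of 8 and Tnfrsf1a in 7 of 9. For Tnfrsf13c, Cd40, Tnfrsf11a and Tnfrsf25 the value was the bound, except with no detection filter, where it was the measured ratio. The sizes moved most for genes dark on the wild-type array: the measured ratio of Tnfrsf13c was 4.53 as reported and 2.31 in the authors' deposited values, and that of Tnfrsf11a was 2.76 and 1.07.

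**Figure D4:**
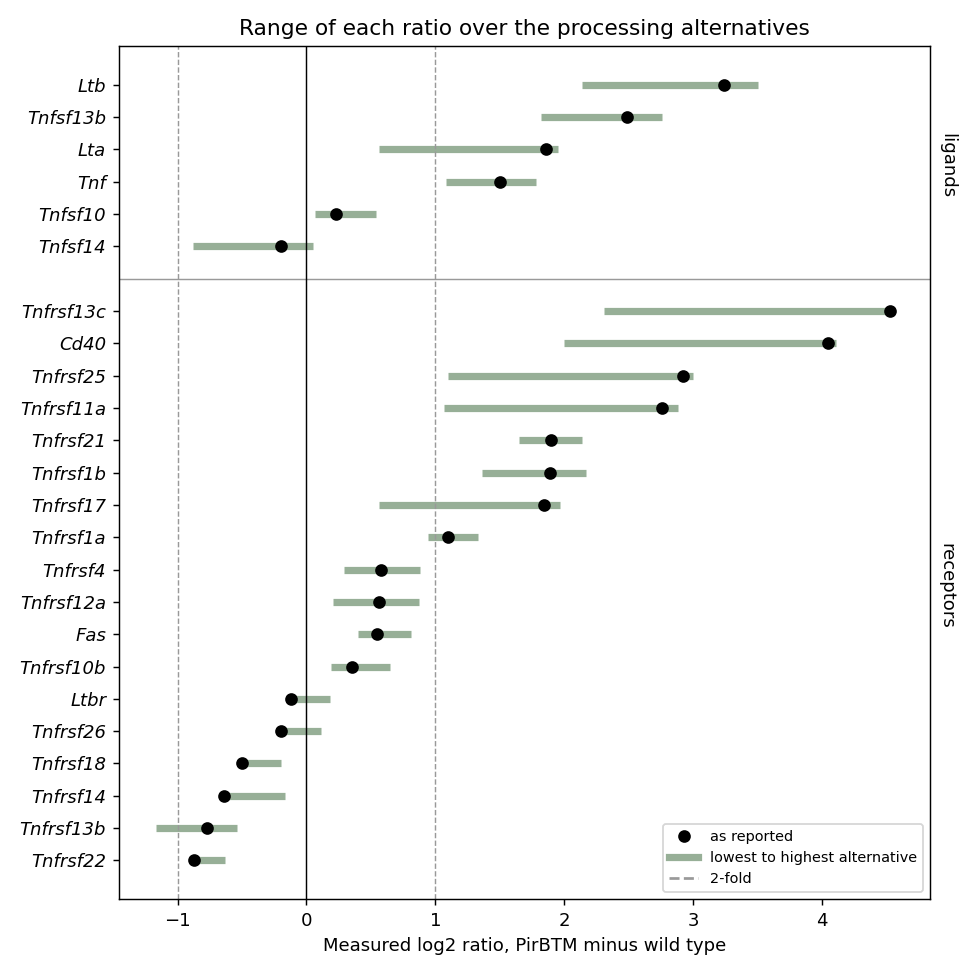
Measured log2 ratio, PirBTM minus wild type (x axis), of the 24 genes as reported (black dots) and its range over the processing alternatives (green bars), without bounds. Bars of Ltbr, Tnfrsf26 and Tnfsf14 cross 0, and those of Tnf, Ltb and Tnfsf13b stay to the right of the 2-fold line.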

How the data were processed

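Total RNA of both samples was read on Illumina bead arrays, after Trizol extraction, column clean-up and biotin labelling, per the labels' protocols. For 45281 probes on 2 arrays the authors deposited average signal intensities and, beside them, a detection p-value, per the file headers. These intensities are linear and not normalized; the deposited series table holds quantile-normalized intensities of the same arrays, used here as an alternative. The scanner software and its version: not given in the sources used here.

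Background was corrected with normexp (limma 3.58.1 in R 4.3.3; offset 16, with the mean and spread of the controls estimated through the detection p-values), followed by quantile normalization and log2. Summaries were computed in Python 3.11.15 with pandas 2.3.3 and tested on simulated data. Probes were named from the platform annotation; all 39 members matched RefSeq by gene identifier and 0 symbols changed. A gene is its brightest probe over both arrays. It is above background if any of its probes has a detection p-value below 0.01. A lower bound sets the bright value against the higher of the dim value and the lowest value above background on the dim array (5.68 in PirBTM and 5.97 in wild type). The number of arrays limits the precision.

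Every member is named. Of the lists around the family, every gene at least 2-fold apart is named. The plan was to name up to 4 genes each way per list, and Timp3 and Rhbdf2 go beyond it. Diablo, Traf4, Fadd, Casp8, Adam17 and Relt are named though they were less than 2-fold apart. Of the cell type markers only some genes are named. The members, the lists of pathway genes and the cell type markers were chosen with earlier results of these data known. Alternatives were normexp offset 50, no background correction, median scaling, cyclic loess, the deposited series values, the mean of probes, a detection limit of 0.05, genes above background on both arrays, and no detection filter. Where the labels do not say that samples came from separate animals, nothing here measures that spread.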

Additional observations from a re-analysis of the deposited data

How the results depend on the processing

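Of 54 comparisons of the ligand and receptor counts and medians with an alternative, 44 stayed within the limits for counts (1.5 times) and medians (the measuring SD of 0.30), and 10 moved; none changed sign. The median log2 ratio of ligands above background was 1.68, or 1.05 with genes at their bound, and it was 1.23 with offset 50, 0.83 in the authors' deposited values, 0.86 without background correction and 0.18 with no detection filter, where the 10 dark ligands enter. The median of receptors was 0.57 and became 0.87 with median scaling and 0.87 with cyclic loess. The number of receptors at least 2-fold higher was 7; it was 4 in the authors' deposited values and 4 without background correction, in both cases without Tnfrsf1a, Tnfrsf11a and Tnfrsf25, 3 when genes had to be above background on both arrays, and 8 with median scaling, cyclic loess, a detection limit of 0.05 or no detection filter, where Tnfrsf17 was added. The number of ligands was 3, and 4 with a detection limit of 0.05 or no detection filter, where Lta was added. Of 72 comparisons of the lists around the family 1 moved: the 2 higher adaptors became 1 with genes above background on both arrays. The number of receptors at least 2-fold lower was 0, and 1 with the mean of probes (Tnfrsf13b). Of 209 member ratios under an alternative, 166 moved by less than the measuring SD and 43 by more, and no member at least 2-fold apart changed sign. Apart from the detection filters and the mean of probes, whose construction accounts for the difference, the cause was not tested. Leaving out a replicate was not possible with 1 array per group. No paired analysis was possible because each group has 1 array and no test was made. Signals near background limit what can be read: 32 of the 73 probes were not above it on either array.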

Other observations

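For several members the raw signals and the normalized values point in opposite directions. The brightest probe of Tnfsf14 had a raw signal of 477.5 in PirBTM and 424.4 in wild type, yet a log2 ratio of -0.20. The same held for Ltbr (351.7 in PirBTM and 294.7 in wild type, ratio -0.12), Tnfrsf18 (295.6 in PirBTM and 288.5 in wild type, ratio -0.50), Tnfrsf26 (264.6 in PirBTM and 230.2 in wild type, ratio -0.20) and Tnfrsf14 (180.6 in PirBTM and 179.6 in wild type, ratio -0.64). Tnfrsf13b (1933.6 in PirBTM and 2788.4 in wild type) and Tnfrsf22 (514.8 in PirBTM and 668.3 in wild type) were lower in PirBTM on both scales.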
